A study of Macaca mulatta with 8 samples.

Results

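Complement components and receptors were chosen by gene symbol. Of 9 symbols (C1QA, C1QB, C1QC, C2, C3, CFB, CFP, C3AR1 and C5AR1), 6 were found among the 35432 genes counted: C1QB, C1QC, C3, CFP, C3AR1 and C5AR1. The rows of C1QA (ENSMMUG00000063725) and CFB (ENSMMUG00000000729) carry no symbol. They were found by their Ensembl ID and are given beside the 6 members, but are not part of the counts over members. No row was found for C2 by symbol or by Ensembl ID, so C2 was not analysed here.

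Complement is a protein cascade that tags microbes, dying cells and, in the brain, synapses for removal. C1q, built from the products of C1QA, C1QB and C1QC, starts the classical pathway, C2 and C3 carry it on, factor B (CFB) and properdin (CFP) form and stabilise the C3 convertase of the alternative pathway, and the fragments C3a and C5a act on the receptors encoded by C3AR1 and C5AR1. Microglia, the resident macrophages of the brain, are the main source of C1q there, and macrophages exposed to LPS are known to make C3 and factor B.

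The libraries were made from primary microglia of frontal subcortical white matter of 4 outbred adult rhesus macaques. These were the males R07110 (13 years) and R12016 (9 years) and the females R02046 (19 years) and R14143 (6 years). Cells were cultured for 8 days in medium with serum and M-CSF, and ultrapure LPS (uLPS, 10 µg/mL), a TLR4 agonist, was added 16 h before RNA extraction. It was given either alone (uLPS, n = 4) or after 1 h with 5 µM MRS2578 (uLPS + MRS2578, n = 4), an antagonist of the UDP receptor P2RY6 that the study describes as selective but not entirely specific. Each animal gave 1 library per condition. As every library had uLPS, the response of a gene to uLPS itself cannot be read from these data, and neither can the effect of MRS2578 alone. The sample labels name no vehicle for the cells with uLPS alone, and the study's methods state that assays with MRS2578 had DMSO controls. Values per animal are listed in the order R07110, R12016, R02046 and R14143 unless an animal is named, and the condition of R02046 is as labelled. Fitted log2 fold changes of uLPS + MRS2578 over uLPS are given ± SE.

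Total counts ran from 9231109 to 32790348 per library. Markers shared by microglia and other macrophages were high in each library, with CSF1R at 1005 to 1469.9 CPM, and 10 of 12 listed markers passed the filter on low counts. Among those enriched in microglia, GPR34 was at 25.0 to 88.7 CPM and P2RY12 at 5.70 to 13.3 CPM, while TMEM119 (0 to 0.316 CPM) and CX3CR1 (0.0508 to 2.21 CPM) did not pass. Summed over 8 lymphocyte markers, the level was at most 0.731 CPM, and over 6 neutrophil markers at most 0.457 CPM. In bulk RNA, a change in the number of cells of a type cannot be told apart from a change in RNA per cell.

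For R02046, the deposited labels and the study's own table of changed genes give opposite conditions to the same libraries. Each of the 8 CPM columns of that table was proportional to the counts of 1 library. Of these columns, 6 carried the condition of the label, and the 2 columns of R02046 carried the opposite one. Which is right is not stated in the sources used here. Values of the 8 genes are therefore given with the labels as deposited, then with the R02046 libraries exchanged, and then over the other 3 animals. Exchanging the libraries turns the sign of each difference in R02046 and leaves the levels of the animals as they are.

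The complement transcripts were abundant. Together the 8 genes took 0.298% to 0.543% of the counts of a library. CPM values are relative to the library total scaled by TMM, edgeR's normalisation factor, and levels of different genes are compared only as CPM per kb of annotated exon. On this scale C5AR1 was highest, with a mean of 419 CPM per kb over the 8 libraries (range 375 to 527). C1QB (367, range 189.6 to 902), C1QC (362, range 219.7 to 769.98) and C1QA (339, range 189 to 747) came next. These 3 chains did not differ from each other, or from C5AR1, beyond the spread between libraries. C3AR1 (205 CPM per kb, range 149.7 to 271) overlapped with the lower C1q values and stayed below each C5AR1 value. CFB (122, range 105 to 144) and C3 (121, range 78.0 to 179) could not be ordered. CFP was lowest (20.7 CPM per kb, range 7.70 to 47.1), below every library of the other genes.

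**Figure D1:**
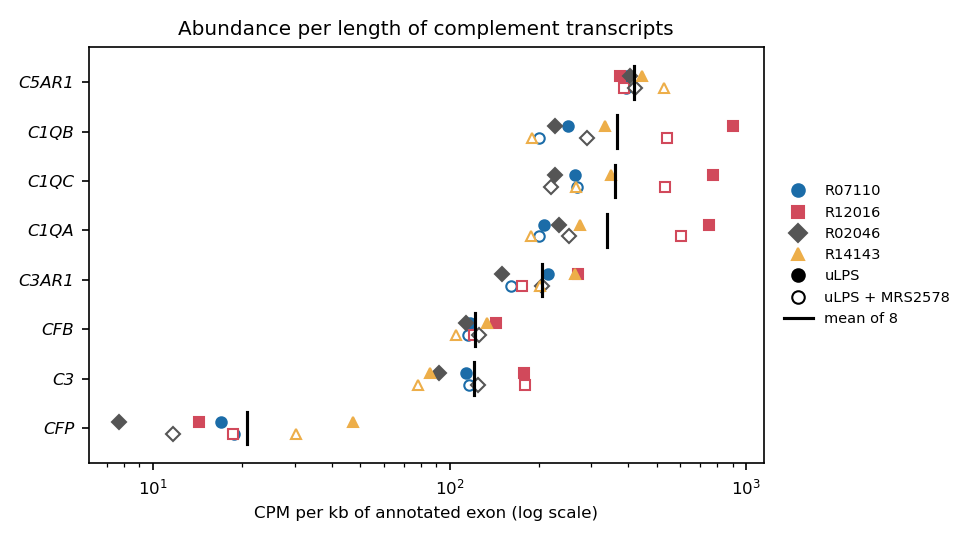
CPM per kb of annotated exon (log scale) for 8 complement genes, ordered by their mean (black bar). Each point is 1 library, filled for uLPS and open for uLPS + MRS2578, with a colour and shape per animal; C5AR1 lies within 375 to 527, while the C1q genes span 189 to 902 with R12016 at the top, and CFP lies below 47.1.

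C1QA (chr1:202139634-202142742 of Mmul_10), C1QB (chr1:202117786-202126077) and C1QC (chr1:202131138-202135635) lie on the minus strand within 24957 bases, and no annotated gene shares exon bases with them. With uLPS, C1QB was at 336, 1209.9, 305 and 448 CPM. With uLPS + MRS2578 it was at 269, 725, 391 and 254 CPM. R12016 was highest in both conditions, and the ranges of the conditions overlapped. C1QC was at 328, 952, 281 and 434 CPM with uLPS and at 332, 658, 272 and 329 CPM with uLPS + MRS2578. C1QA was at 256, 922, 288 and 339 CPM with uLPS and at 247, 744, 312 and 233 CPM with uLPS + MRS2578. All 3 chains were thus highest in R12016 in both conditions, and all 3 were lower with MRS2578 in R12016 and R14143.

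**Figure D2:**
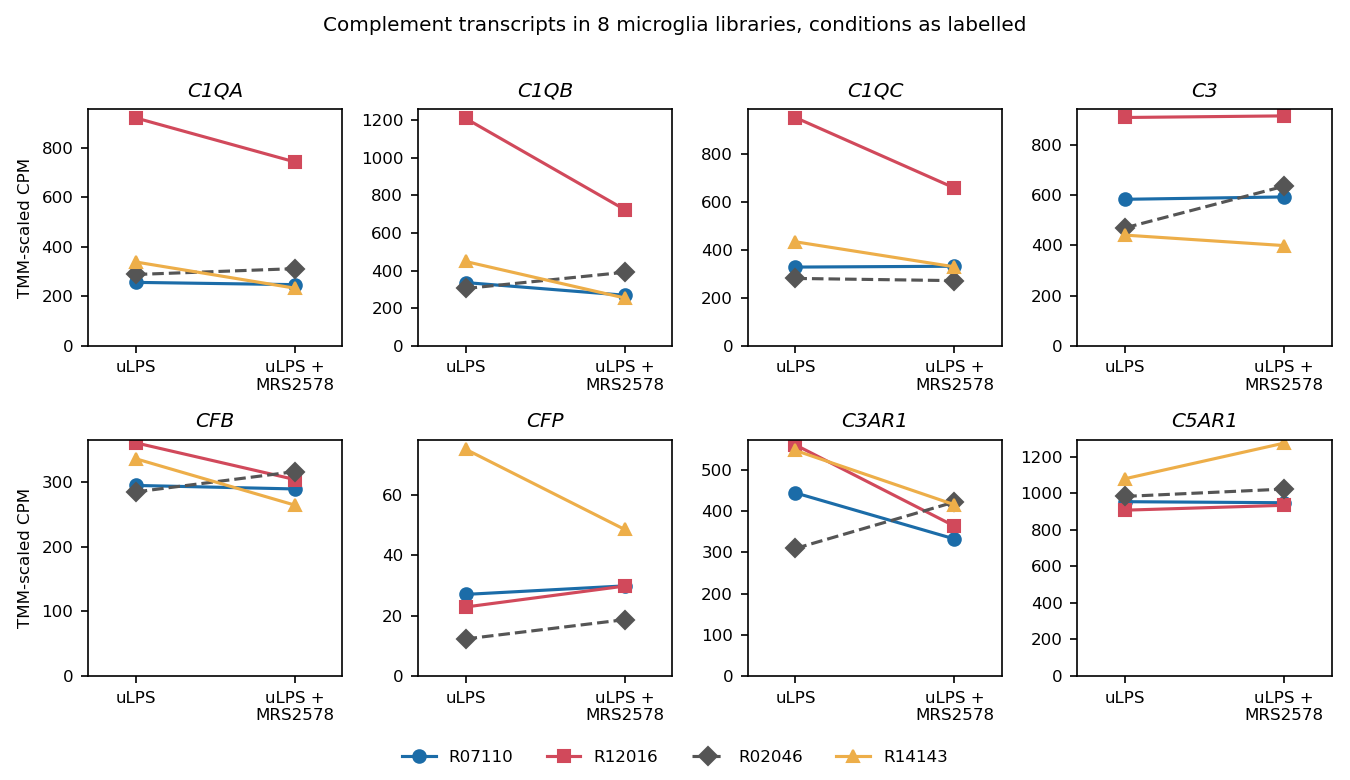
TMM-scaled CPM of 8 complement genes with uLPS and with uLPS + MRS2578, conditions as labelled, with 1 line per animal (dashed for R02046, whose conditions are in doubt). The C1q genes are highest in R12016 (C1QB 1209.9 and 725 CPM), C3AR1 is lower with MRS2578 in every animal but R02046, and CFP is highest in R14143.

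In the quasi-likelihood test of edgeR, with the animal as a block, the log2 fold change of C1QB was -0.38 ± 0.20 (adjusted p = 0.878) with the labels as deposited. It was -0.56 ± 0.11 (adjusted p = 0.0744) with R02046 exchanged and -0.63 ± 0.13 (adjusted p = 0.177) without R02046. Within animals, the log2 difference of C1QB was -0.32, -0.74, 0.36 and -0.82. Each of these differences was over 10 times its counting error, which was at most 0.0334. For C1QC the log2 fold change was -0.24 ± 0.13, -0.22 ± 0.12 and -0.31 ± 0.14 under the 3 assignments, and the smallest of its adjusted p values was 0.408. For C1QA it was -0.20 ± 0.13, -0.25 ± 0.10 and -0.30 ± 0.13, with a smallest adjusted p of 0.280. C1QC differed by 0.0155 in R07110 and by -0.0480 in R02046, both close to their counting errors of 0.0211 and 0.0367.

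The proportions of the chains differed between libraries. As a share of the summed C1q level per kb, C1QA took 28.6% to 36.0%, C1QB 29.4% to 38.2% and C1QC 28.8% to 41.3% over the 8 libraries. In R07110 the share of C1QB was 34.6% with uLPS and 30.0% with uLPS + MRS2578, in R12016 37.3% and 32.3%, and in R14143 34.8% and 29.4%. In R02046 as labelled it was 33% and 38.2%. The share of C1QB was therefore smaller with MRS2578 than with uLPS alone in 3 animals, and larger in the remaining one unless its libraries are exchanged. This difference in share was not tested.

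**Figure D3:**
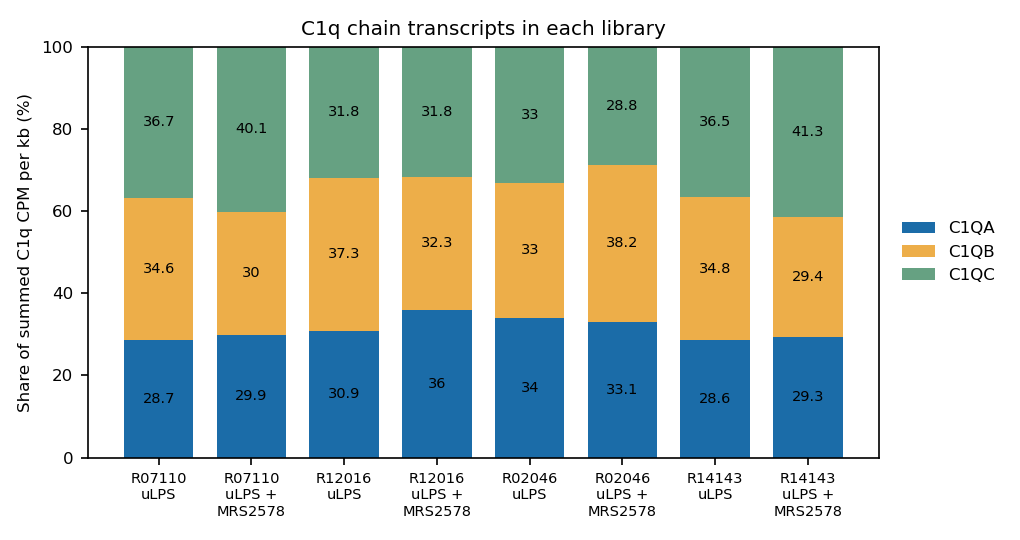
Share of C1QA, C1QB and C1QC in the summed C1q level per kb of exon (percent, bars add up to 100) in each of the 8 libraries, as labelled. No chain falls below 28.6% or exceeds 41.3%, and the share of C1QB is smaller with MRS2578 in every animal but R02046.

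As the 3 chains have neighbouring genes and similar levels, the 250 bases before each annotated start are shown, read from Mmul_10 at the RefSeq gene start, 5' to 3' on the strand of the gene. Capitals mark matches, on either strand, to the NF-kB consensus, to the IRF motif (GAAA, 2 bases of any kind, GAAA), to the NFAT motif TGGAAA and to the C/EBP motif TTNNGNAA. The starts are mostly predicted models.
C1QA, chr1:202142743-202142992, minus strand: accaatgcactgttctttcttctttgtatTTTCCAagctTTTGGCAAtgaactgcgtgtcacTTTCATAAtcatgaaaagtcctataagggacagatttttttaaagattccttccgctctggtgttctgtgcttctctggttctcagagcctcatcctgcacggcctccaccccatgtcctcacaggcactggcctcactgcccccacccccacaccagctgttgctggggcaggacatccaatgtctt
C1QB, chr1:202126078-202126327, minus strand: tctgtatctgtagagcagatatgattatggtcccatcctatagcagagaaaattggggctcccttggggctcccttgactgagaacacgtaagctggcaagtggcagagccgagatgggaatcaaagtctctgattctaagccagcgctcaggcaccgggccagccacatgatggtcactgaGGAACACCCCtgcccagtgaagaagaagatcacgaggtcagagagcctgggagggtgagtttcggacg
C1QC, chr1:202135636-202135885, minus strand: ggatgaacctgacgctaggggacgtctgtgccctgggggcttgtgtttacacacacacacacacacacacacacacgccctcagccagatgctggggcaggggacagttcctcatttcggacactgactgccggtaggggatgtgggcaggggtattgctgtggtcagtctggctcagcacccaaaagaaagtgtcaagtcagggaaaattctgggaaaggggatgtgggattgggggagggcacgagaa
The windows share none of these motifs. That of C1QA holds 1 NFAT match (TTTCCA, reverse strand) and 2 C/EBP matches, that of C1QB holds 1 NF-kB match (GGAACACCCC, reverse strand), and that of C1QC holds none. Among 20782 windows of protein-coding genes, 9.55% hold the NF-kB consensus, 3.03% the IRF motif, 17.1% the NFAT motif and 31.7% the C/EBP motif. A match describes letters and shows no binding.

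C3 (chr19:6596887-6638613), the component on which all pathways converge, was at 584, 911, 471 and 441 CPM with uLPS. With uLPS + MRS2578 it was at 594, 917, 637 and 399.6 CPM. The levels in R07110 and R12016 differed between conditions by 0.0233 and 0.0101 on the log2 scale, against counting errors of 0.0158 and 0.0170. The widest log2 difference of C3, 0.44 as labelled, was in R02046. Fitted over the animals, the log2 fold change was 0.081 ± 0.13 (adjusted p = 0.942) as labelled, -0.14 ± 0.11 (adjusted p = 0.572) exchanged and -0.0371 ± 0.11 (adjusted p = 0.913) without R02046, so its sign followed the assignment of 1 animal.

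CFB (chr4:137543938-137549958) was the most even of these genes, with 264.8 to 361 CPM over the 8 libraries. It was at 295, 361, 285 and 337 CPM with uLPS and at 289.8, 304, 317 and 265 CPM with uLPS + MRS2578. Its log2 fold change was -0.12 ± 0.11 (adjusted p = 0.906) as labelled, -0.19 ± 0.0878 (adjusted p = 0.328) exchanged and -0.21 ± 0.11 (adjusted p = 0.472) without R02046. C2 is annotated on the same strand, 380 bases from CFB. The window before the start of CFB is shown because CFB is the other gene here with a match to the NF-kB consensus (GGGGCCCTCC, forward strand).
CFB, chr4:137549959-137550208, minus strand: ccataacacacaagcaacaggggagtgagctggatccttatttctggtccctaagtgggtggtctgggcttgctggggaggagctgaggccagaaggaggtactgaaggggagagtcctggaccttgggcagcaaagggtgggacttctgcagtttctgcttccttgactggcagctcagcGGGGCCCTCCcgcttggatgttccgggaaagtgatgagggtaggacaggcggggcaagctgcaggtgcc

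CFP (chrX:47573064-47578843), whose product binds and prolongs the alternative C3 convertase, was the least abundant. It was at 27.0, 22.8, 12.3 and 75.05 CPM with uLPS, and at 29.8, 29.8, 18.6 and 48.5 CPM with uLPS + MRS2578. The lowest value rests on 115 counts, with an exact Poisson 95% interval of 10.1 to 14.7 CPM that covers counting error only. R14143 was highest in both conditions, and it was the only animal in which CFP was lower with MRS2578, with a log2 difference of -0.63. The log2 fold change was 0.11 ± 0.20 (adjusted p = 0.952) as labelled, -0.16 ± 0.19 (adjusted p = 0.723) exchanged and -0.0449 ± 0.21 (adjusted p = 0.950) without R02046.

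The receptors differed in pattern. C3AR1 (chr11:11457209-11462824), the C3a receptor, was at 444, 561, 309 and 547 CPM with uLPS. With uLPS + MRS2578 it was at 333, 364, 422 and 416 CPM. As labelled, the conditions overlapped. With R02046 exchanged they did not, as every value with MRS2578 lay below every value with uLPS, which held for 1.57% of all 12131 genes tested. The log2 difference of C3AR1 was -0.42, -0.62, 0.45 and -0.40, so that R02046 as labelled went against the other animals. Its log2 fold change was -0.25 ± 0.18 (adjusted p = 0.892) as labelled, -0.47 ± 0.0852 (adjusted p = 0.0599) exchanged and -0.48 ± 0.11 (adjusted p = 0.180) without R02046.

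C5AR1 (chr19:47327279-47342818), the C5a receptor, was at 954, 908, 983 and 1080.2 CPM with uLPS and at 949, 935, 1023 and 1275 CPM with uLPS + MRS2578. The values differed by no more than 0.0577 on the log2 scale between the conditions of R07110, R12016 and R02046, and by 0.24 in R14143, where C5AR1 was higher with MRS2578. Its log2 fold change was 0.0827 ± 0.11 (adjusted p = 0.934) as labelled, 0.0540 ± 0.0966 (adjusted p = 0.831) exchanged and 0.0903 ± 0.12 (adjusted p = 0.796) without R02046. Per kb, C5AR1 was 1.84, 1.38, 2.71 and 1.69 times C3AR1 with uLPS, and 2.44, 2.20, 2.07 and 2.62 times with uLPS + MRS2578. This ratio was larger with MRS2578 in every animal but R02046 as labelled. It was not tested.

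**Figure D4:**
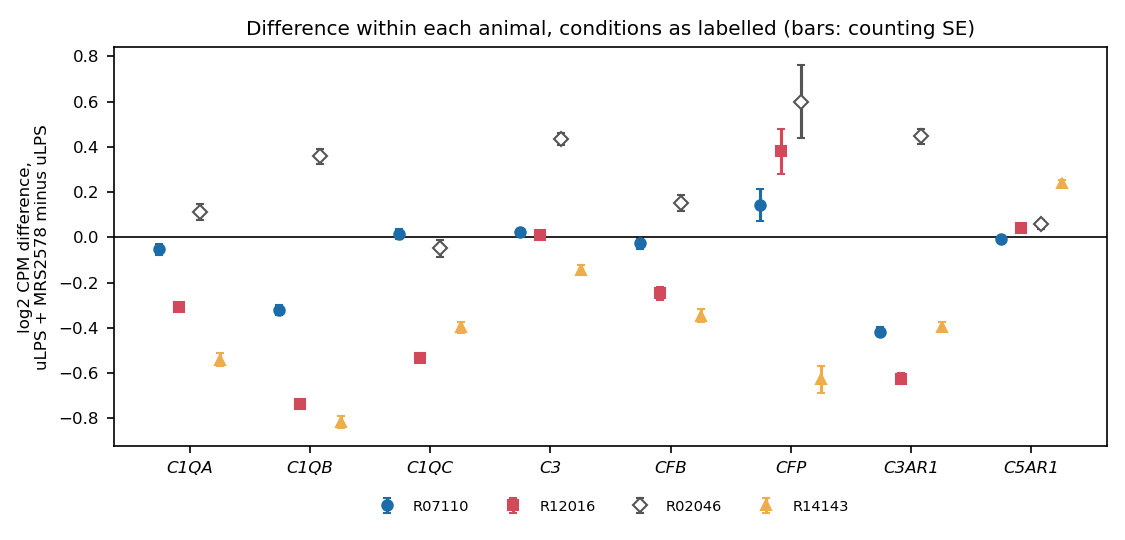
Difference in log2 CPM between uLPS + MRS2578 and uLPS within each of 4 animals (symbols; open for R02046), as labelled, with the counting SE as bars. For C1QB and C3AR1 the symbol of R02046 lies above 0 and those of the other animals below; C5AR1 stays between -0.0087 and 0.24.

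For MRS2578, none of the members passed the test. With the labels as deposited, 0 of 6 were called at an adjusted p under 0.05, and 0% of all 12131 genes tested were. An unadjusted p under 0.05 was reached by 0 of 6 members and 5.14% of all genes, and DESeq2's Wald test and the likelihood ratio test of edgeR called 0 members as well. The members' median log2 fold change was -0.0798, with 3 lower and 3 higher, against -0.00973 over all genes, of which 52.1% were lower. With R02046 exchanged, 0 of 6 were called beside 0.618% of all genes (0.519% lower and 0.0989% higher), and C1QB and C3AR1 had an unadjusted p under 0.05, as had 16.4% of all genes. The median of the members was then -0.19, with 5 lower and 1 higher, while 49.8% of all genes were lower. Under that assignment C1QB and C3AR1 were called by DESeq2's Wald test (adjusted p = 5.85e-04 and 8.72e-05), which called 583 genes in all, and by the likelihood ratio test (0.00361 and 0.00374), which called 616. Without R02046, 0 of 6 members and 0% of 12295 genes were called by the quasi-likelihood test. An unadjusted p under 0.05 was then reached by 2 members (C1QB and C3AR1) and 13.6% of genes, and 5 members and 50.5% of genes were lower.

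Read by animal, C1QB and C3AR1 were the 2 of 6 members that were lower in each of the 3 animals with undisputed labels, as were 19.8% of all genes tested. Both were higher in R02046 as labelled, a pattern that 13.3% of all genes had. None of the 6 was higher in each of those 3 animals, against 17% of genes. As labelled, 0 of 6 members had conditions that did not overlap, against 0.412% of genes lower and 0.668% higher with MRS2578. With the exchange only C3AR1 did, in the lower direction, and 1.41% of genes did so in the higher one.

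**Figure D5:**
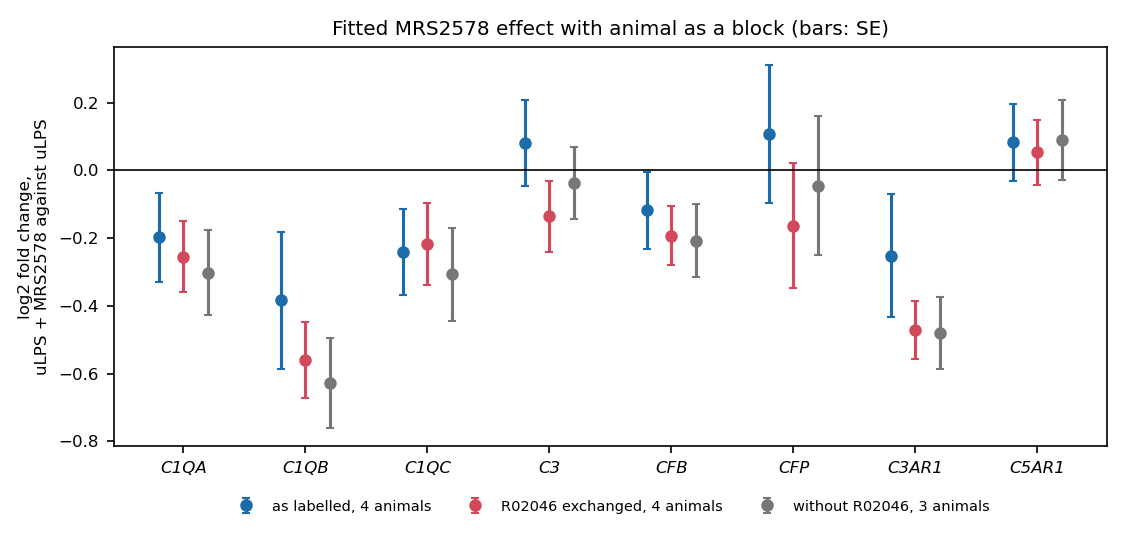
Log2 fold change with MRS2578 from edgeR's quasi-likelihood fit with the animal as a block (bars, SE) for 8 complement genes, with the labels as deposited, with the R02046 libraries exchanged, and without R02046. C1QB runs from -0.38 to -0.63 and C3AR1 from -0.25 to -0.48, while C3 and CFP change sign with the assignment and no value has an adjusted p under 0.05.

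The animal took the larger share of the variation for most of these genes. The test of the animal in the same fit called 4 of 6 members (C1QB, adjusted p = 0.0337, C1QC 0.0134, C3 0.0437 and CFP 0.0310) and also C1QA (0.00873), beside 7.35% of all genes. C3AR1 (0.593), C5AR1 (0.380) and CFB (0.769) did not pass. Of the variation in log2 CPM over the 8 libraries, the animal accounted for 82.8% in C1QB, 92.3% in C1QC, 95% in C1QA, 92.5% in C3, 89.7% in CFP and 82.2% in C5AR1, against a median of 65.3% over all genes. It accounted for 31.7% in C3AR1 and 27.7% in CFB. The condition accounted for 18.2% in C3AR1 and 19.5% in CFB as labelled, and for 65.9% and 52.5% with R02046 exchanged, against medians over all genes of 4.97% and 7.72%. For C1QB it was 6.85% as labelled and 14.8% exchanged. These are shares of sums of squares, and the animal has more degrees of freedom than the condition. A gene without any effect therefore also has a share for each, larger on average for the animal. The exchange also called 4 members, beside 18.9% of all genes.

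Fewer members were called when an animal was left out, in fits that also rest on fewer libraries. Without R12016, 1 of 6 members (CFP, adjusted p = 0.0358) was called, with an adjusted p of 0.800 for C1QB, 0.280 for C1QC and 0.280 for C3 in the quasi-likelihood test, while the count over all genes fell from 892 of 12131 to 333 of 12207. Without R07110, 2 members (C1QC and CFP) and 421 of 12082 genes were called, and without R14143 C1QC alone of the members and 408 of 12128 genes. In these fits the adjusted p was 0.0715 and 0.0557 for C1QB, and 0.0774 and 0.125 for C3. Without R02046 the called members were C1QB, C1QC and C3, beside 7.39% of genes. Animal and culture cannot be told apart, as the sources used here name no second isolation of cells from an animal.

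Summed markers of some other cells were also high in R12016, and those of others were not. Those of oligodendrocytes summed to 407 and 304 CPM in R12016 against 223 to 258 CPM in the other animals. Of the 8 listed genes 6 were found, CNP (158 to 343 CPM) made up most of the sum, and MOG, OLIG2 and SOX10 stayed under 1 CPM. MBP was even, at 58.9 to 74.8 CPM over the 8 libraries. In the quasi-likelihood test of the animal, as labelled, the adjusted p was 0.975 for MBP and 0.0459 for CNP. Of the 5558 exon bases of CNP, 3241 are shared with DNAJC7 on the opposite strand. Those of endothelial cells (6 genes, led by PECAM1, with CLDN5 and CDH5 under 1 CPM) summed to 334 and 312 CPM in R12016, against 188 to 265. The 12 microglia and macrophage markers summed to 4022 and 3772 CPM in R12016, within the 3634 to 4687 of the other animals. Fibroblast and mural markers (8 genes, led by COL1A1) were at 1266 CPM in R14143 with uLPS, the library with the highest CFP, and at 142 to 582 CPM in the other libraries, with 142 and 266 CPM in R12016. Astrocyte markers (6 genes, with ALDH1L1 at most at 1.07 CPM) summed to 88.6 to 205 CPM, highest in R14143 and R12016 with uLPS. The 5 neuron markers summed to at most 9.41 CPM. The part of these cells in the complement levels was not tested.

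Other genes of the pathway were read from a list of 41, of which 38 had a row and 18 passed the filter on low counts. With the labels as deposited, 9 were lower and 9 higher with MRS2578, with a median log2 fold change of 0.0361. None was called by the quasi-likelihood, likelihood ratio or DESeq2 Wald test, and CD46 and C5AR2 had an unadjusted p under 0.05, beside 5.14% of all genes. With R02046 exchanged, 10 of 18 were lower and 0 called by the quasi-likelihood test, and 6 had an unadjusted p under 0.05, beside 16.4% of all genes. Without R02046, 9 were lower and 0 called, and 7 had an unadjusted p under 0.05, beside 13.6% of all genes.

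Among initiators and their inhibitors, C1S, a protease of the C1 complex, was at 12.1 to 22.7 CPM and SERPING1, the C1 inhibitor, at 5.97 to 43.1 CPM, highest in R12016. The log2 fold change of SERPING1 was -0.40 ± 0.25 (adjusted p = 0.878) as labelled and -0.53 ± 0.20 (adjusted p = 0.244) exchanged, and -0.59 ± 0.24 (adjusted p = 0.363) without R02046. C4BPA, MBL2, MASP2 and CFHR5 had no counts in any library, nor had C6, C7, C8A and C8B of the membrane attack complex. A count of 0 allows up to 0.0913 to 0.320 CPM, depending on the library. C5, the precursor of the C5AR1 ligand, was at 0.168 to 0.948 CPM, below the filter.

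The membrane regulators that protect host cells were led by CD55, which speeds the decay of convertases. CD55 was at 391, 569, 297 and 642 CPM with uLPS and at 278, 268, 359.7 and 448 CPM with uLPS + MRS2578. R02046 as labelled was the only animal in which CD55 was higher with MRS2578, with a log2 fold change of -0.46 ± 0.21 (adjusted p = 0.878) as labelled and -0.59 ± 0.13 (adjusted p = 0.0964) exchanged, and -0.70 ± 0.15 (adjusted p = 0.177) without R02046. CD59, which blocks the attack complex, had the same directions in the 4 animals and log2 fold changes of -0.37 ± 0.16 (adjusted p = 0.878), -0.48 ± 0.11 (adjusted p = 0.0940) and -0.55 ± 0.11 (adjusted p = 0.160) under the 3 assignments. CD46, a cofactor for cleavage of C3b, was higher with MRS2578 in R07110, R12016 and R14143, by 0.16 to 0.76 on the log2 scale. Being higher in each of these animals held for 17% of all genes tested. In R02046 as labelled, CD46 differed by only 0.0068. Its log2 fold change was 0.33 ± 0.14 (adjusted p = 0.878) as labelled and 0.33 ± 0.13 (adjusted p = 0.256) exchanged, and 0.44 ± 0.14 (adjusted p = 0.270) without R02046.

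Among the other receptors, ITGB2, the shared chain of complement receptors 3 and 4, was at 1663 to 3457 CPM. Here too R02046 as labelled was the only animal with a higher value under MRS2578, with log2 fold changes of -0.17 ± 0.19 (adjusted p = 0.927) and, exchanged, -0.37 ± 0.11 (adjusted p = 0.152), and -0.36 ± 0.14 (adjusted p = 0.358) without R02046. Its partners ITGAM (477 to 914 CPM) and ITGAX (670.4 to 1098 CPM) had log2 fold changes of 0.0921 ± 0.12 and -0.0199 ± 0.13 as labelled, -0.0519 ± 0.11 and -0.19 ± 0.0955 exchanged, and 0.0259 ± 0.12 and -0.14 ± 0.11 without R02046. C5AR2, the second C5a receptor, was at 22.0 to 74.0 CPM and was higher with MRS2578 in 4 of 4 animals as labelled, and lower in R02046, with a log2 difference of -0.36, once exchanged. Being higher in each of R07110, R12016 and R14143 held for 17% of all genes tested. The log2 fold change of C5AR2 was 0.29 ± 0.0926 (adjusted p = 0.878) as labelled, 0.11 ± 0.13 (adjusted p = 0.744) exchanged and 0.26 ± 0.10 (adjusted p = 0.350) without R02046. VSIG4 (30.6 to 72.5 CPM), CD93 (27.3 to 149 CPM), C1QBP (131 to 229 CPM) and the fluid-phase regulator clusterin, CLU (6.43 to 48.5 CPM), had log2 fold changes of 0.18, 0.0940, -0.17 and 0.40 as labelled. With R02046 exchanged these were 0.26, -0.0189, 0.0838 and 0.45, so that CD93 and C1QBP turned sign, and without R02046 they were 0.28, 0.0490, -0.0578 and 0.53. None was called in these 3 fits. CLU was called by the quasi-likelihood test with R02046 exchanged and R14143 left out (0.93 ± 0.20, adjusted p = 0.0350), where 918 of 12128 genes were called. In R14143, the animal left out, CLU was lower with MRS2578, with a log2 difference of -0.90. The difference was 1.12 in R07110, 1.24 in R12016 and -0.0391 in R02046 as labelled.

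The genes whose log2 CPM followed a member most closely over the 8 libraries were listed by Pearson correlation among 10781 genes, as a description without a test, since pairs of libraries share an animal. For C1QB these were LAIR1 (0.991), CYP2J2 (0.987) and ARID4A (0.987), and for C1QC LGR6 (0.996), BEND5 (0.984) and SERPING1 (0.981). C3 was followed by TRIM26 (0.975), CCL19 (0.974) and CLIC2 (0.971), and CFP by ELK1 (0.990), SGSM3 (0.979) and MED25 (0.978). C3AR1 was followed by OSGIN2 (0.988), TCIRG1 (0.984) and AOAH (0.977), and C5AR1 by CERS2 (0.972), KCNK6 (0.962) and GPR35 (0.959). Mean levels of CYP2J2, LGR6, BEND5 and CCL19 were low, at 2.59, 3.29, 1.29 and 1.41 CPM. How high the top of so many correlations over 8 libraries would be by chance was not tested. Between the members themselves, C1QB and C1QC correlated highest, at 0.928, and C3 and C5AR1 lowest, at -0.769. C1QB and C3 correlated at 0.805, C1QB and C3AR1 at 0.543, and C3AR1 and C5AR1 at 0.0921. With the mean of each animal removed, the correlation was 0.868 for C1QB and C1QC and 0.936 for C1QB and C3AR1.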

How the data were processed

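RNA was measured in 8 libraries, 1 per animal and condition. The deposited values are whole-number counts of reads per Ensembl gene, without normalization. According to the study's methods, the authors trimmed reads with fastp, aligned them to Mmul_10 with STAR and counted unique reads within exons with HTSeq, while the submitters' processing notes name Trimmomatic (version 0.30), TopHat2 (2.0.14), SAMtools (1.3) and HTSeq (0.6.1p1). The annotation release and the strand setting of the counting are not given in the sources used here, so genes with near-identical copies or antisense partners have uncertain counts. Per the labels the medium held 10 ng/mL M-CSF, and per the methods 20 ng/mL.

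The tools were edgeR 4.0.16 and DESeq2 1.42.0, run under R 4.3.3. After filterByExpr (minimum count 10) and TMM scaling, genes were tested by the quasi-likelihood F-test with the animal as a block and Benjamini-Hochberg adjustment over all genes tested, called at an adjusted p under 0.05. The SE of a fold change was derived from its F statistic. The animal was tested in the same fit. Within-animal differences were taken between log2 CPM values (prior count 2). The counting error of a difference comes from the counts alone and covers counting error only. Conditions come from the treatment labels. The animal is named in the labels, and the deviations of its libraries from the condition means correlated at 0.602, 0.552, 0.458 and 0.562 for R07110, R12016, R02046 and R14143. No library pair was a duplicate (chi-square per degree of freedom at least 19.6). Exon lengths, positions and sequences are from NCBI's RefSeq annotation of Mmul_10, not from the annotation used for counting. The 2 rows without a symbol were matched by Ensembl ID. The sequence before the start of C3AR1 is not reported here.

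The members, gene lists and tests were chosen with earlier results of these data known. Named genes are the members, the other complement genes with a mean of at least 10 CPM or called in a fit that the text uses, and the 3 genes most correlated with each member, of which those of 6 members are given. Complement genes below 10 CPM (C5 and those without counts) and cell type markers are named outside this rule, chosen after their values were seen. In simulated counts, 199 of 200 genes changed 3-fold with MRS2578 were recovered among 12251, and 195 of 200 genes raised 3-fold in 1 animal. The simulation changed well-counted genes only, gave all genes the same dispersion and let the animals respond alike to MRS2578. It therefore checks the code, and the power for the smaller changes seen here cannot be read from it. Alternatives were another scaling, other tests, other filters, no block, each animal left out and the R02046 exchange. The earlier edgeR estimation, and DESeq2 with the exchange, were added after the data were examined.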

Additional observations from a re-analysis of the deposited data

Results flagged for a closer look

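In 4 of 16 groups of 4 libraries, the highest library stood apart from the others by Dixon's test at the 95% level. It was R12016 each time. The test used CPM and not log2 CPM. Its chance rate of about 1 in 20 holds for normally distributed values, so 4 of 16 cannot be set against that rate here. With uLPS, C1QA was at 922 CPM in R12016 against 339 CPM in the next library, and C1QB at 1209.9 CPM against 448 CPM. With uLPS + MRS2578, C1QA was at 744 CPM against 312 CPM, and C1QC at 658 CPM against 332 CPM. The C1q genes move together over libraries, so these are not separate observations.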

How the results depend on the processing

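Limits are the condition of the R02046 libraries and the number of animals, 4. With the labels as deposited, 0 members and 0 other complement genes were called under each alternative, leaving out an animal and fitting with no replicate block included; leaving out the block changed no call in these counts with R02046 exchanged either. With R02046 exchanged, 2 members and 3 other genes (CD55, CD59 and ITGB2, all lower) were called by edgeR's likelihood ratio test (616 of 12131 genes in all) and by DESeq2's Wald test (583). Leaving out an animal under the exchange gave 0 to 2 members and 0 to 4 other genes, the highest of each without R14143. There 918 of 12128 genes were called, against 0 without R07110 and 5 without R12016. The quasi-likelihood test without R14143 called C1QB (adjusted p = 0.0411) and C3AR1 (0.0210), with CD55, CD59 and, higher with MRS2578, CLU and CFD. In R14143 itself CLU was lower with MRS2578. CFD was low, with a mean of 1.07 CPM and a range of 0.219 to 3.66 CPM over all libraries. Without R02046, R07110 or R12016 no member was called. The animal effect was called in 1 to 3 members with an animal left out as labelled and in 1 to 4 with the exchange, where 1 member was called without R12016. It was called in 3 members and 819 of 19045 genes with no filter on low counts, and in 5 members, C3AR1 included, and 3395 of 12131 genes by DESeq2 with the exchange.

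Of 152 log2 fold changes recomputed for the 8 genes, 127 kept their direction and call, 6 became called (C1QB and C3AR1 in the fits above) and 19 changed sign, none of them called. Those of C3 ranged from -0.0371 (without R02046) to 0.152 (without R14143) with an animal left out. With the exchange C3 was at -0.14 in the quasi-likelihood, likelihood ratio, earlier quasi-likelihood and DESeq2 tests, at -0.11 with no replicate block, and at -0.19, -0.18 and -0.14 without R07110, R12016 and R14143. CFP was at -0.12 with no replicate block and ranged from -0.0449 (without R02046) to 0.366 (without R14143). With the exchange it was at -0.16 (quasi-likelihood), -0.17 (likelihood ratio and earlier quasi-likelihood), -0.18 (DESeq2), -0.24 (no replicate block), and -0.28 and -0.33 without R07110 and R12016. C5AR1 was at -0.0102 with the exchange and without R14143. The 32 mean levels recomputed with other scalings moved by less than 1 SD between animals, a wide limit that a change of scaling could hardly exceed. C1QB with uLPS, for example, had a mean of 575 CPM (SD 428), against 552 CPM from total counts and 578 CPM from DESeq2 size factors. The cause of the changes in sign and call was not tested.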
